A study of Mus musculus with 6 samples.

Results

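The genes described here are 37 interferon-stimulated genes and nucleic acid sensors, read in mouse T cell leukemias with and without Sh2b3. They were taken as every probe set whose platform symbol, or an older alias of it, is on a fixed list of 37 names. Each gene was represented by its probe set of highest mean signal over the 6 arrays. Of the 37 genes, 35 had a probe set with 1 gene symbol, and 31 lay above the filter on low signal, among 12563 genes tested in all. Ifit1, Oasl2, Oas3 and Mx2 were under the filter. Isg15 is read by a probe set that carries a second gene symbol, and Ifi44 had no probe set in the annotation used, so neither is analysed here.

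The study compared 3 leukemias of wild-type Sh2b3 with 3 of genotype Sh2b3-/-, each on 1 one-colour array. All 6 carry ΔE-NOTCH1, an active form of the receptor, so no group is free of the oncogene. Lineage-depleted marrow came from 8-week-old donors, C57BL6 for the wild type and Sh2b3-/- for the knockout, and was infected with the retrovirus MigR1-ΔE-Notch1. Lin-Sca1+ infected cells then grew in irradiated C57BL6 recipients. The labels name no promoter that would limit the oncogene to 1 lineage, and the recipients keep Sh2b3 in their own surviving cells, which a tumour can hold. The labels give the strain of the knockout donors by genotype alone and do not tie arrays to individual recipients. They call the arrays biological replicates and also state that RNA was isolated in triplicate, so p-values measure the spread between these samples, part of which may be technical. From each sample 10 ng of RNA was amplified before labelling.

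Interferons are secreted when cells sense foreign or misplaced nucleic acid, and they act through JAK kinases and STAT proteins. Type I interferon brings a complex that holds STAT2 and IRF9 to a DNA element called the ISRE, whereas interferon gamma acts through an element called GAS. The genes under these elements encode the sensors themselves, enzymes that block viral RNA and proteins, GTPases that act on intracellular pathogens, and brakes on the signal. SH2B3, also called LNK, is an adaptor that dampens signalling by cytokine receptors that use JAK2.

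The ISRE and GAS letters near the starts of these genes are shown first, because the members that read high together on 1 array could be set beside what their promoters hold. RefSeq promoters of build GRCm38, from 250 bases before to 50 after a start, were matched by symbol for 28 of the 37 genes. They were searched on both strands for a form of the ISRE, GAAA followed by any 2 bases and GAAA again, and for TTCNNNGAA, a form of GAS; overlapping matches were each counted. At least 1 promoter held the ISRE letters in 15 of the 28 genes (53.6%), against 1079 of 27025 genes with a promoter (3.99%). The GAS letters stood in 8 of the 28 (28.6%), against 2582 of all genes (9.55%). A match describes letters and shows no binding. The stretches below run 5′ to 3′ along the gene's own strand, 80 bases each, with the ISRE letters in capitals, on either strand. The first 4 are members whose values were high on the first knockout array, namely Gbp2 at chr3:142620568-142620647 (+), Gbp3 at chr3:142559964-142560043 (+), Oas1a at chr5:120907526-120907605 (-) and Rsad2 at chr12:26456529-26456608 (-).
Gbp2: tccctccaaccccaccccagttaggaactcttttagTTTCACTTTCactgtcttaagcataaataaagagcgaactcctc
Gbp3: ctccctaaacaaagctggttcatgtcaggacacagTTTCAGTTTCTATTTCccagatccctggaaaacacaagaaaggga
Oas1a: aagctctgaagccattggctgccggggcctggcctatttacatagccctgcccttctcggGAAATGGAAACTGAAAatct
Rsad2: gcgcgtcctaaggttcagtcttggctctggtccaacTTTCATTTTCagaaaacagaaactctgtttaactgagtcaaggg
In Gbp3 and Oas1a the capitals cover 2 matches that overlap each other. Igtp, at chr11:58199476-58199555 (+), holds the GAS letters and then the ISRE letters, both in capitals.
Igtp: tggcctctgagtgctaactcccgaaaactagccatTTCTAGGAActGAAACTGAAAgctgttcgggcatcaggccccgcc
For contrast, Cgas at chr9:78443238-78443317 (-), Samd9l at chr6:3399572-3399651 (-) and Trim25 at chr11:88999323-88999402 (+) had neither set of letters in their whole window. The 80 bases before their starts are given.
Cgas: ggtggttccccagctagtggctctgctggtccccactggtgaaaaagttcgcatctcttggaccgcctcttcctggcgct
Samd9l: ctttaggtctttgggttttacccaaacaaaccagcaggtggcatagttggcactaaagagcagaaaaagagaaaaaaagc
Trim25: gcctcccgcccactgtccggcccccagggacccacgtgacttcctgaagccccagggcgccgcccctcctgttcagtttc

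Values throughout are log2 signals as deposited, and a log2 fold change is the knockout mean minus the wild-type mean. Sh2b3 itself read 4.25, 4.83 and 4.08 on the wild-type arrays and 2.29, 2.24 and 2.29 on the knockout arrays, in the direction of the labels. The smallest two-sided exact permutation p for 3 against 3 is 0.1, and it was reached (p = 0.1). Of T cell markers, Cd3d lay between 12.13 and 12.63 on all 6 arrays and Cd8a between 9.88 and 11.39, while Cd4 lay between 2.23 and 4.63. Wild-type arrays 1 and 2 stand apart as a near-identical pair. Over 6725 genes with a mean above 5, their differences had an SD of 0.234, against 0.503 to 0.689 for the other 14 pairs. They are labelled as separate replicates and are kept so here. Whether they come from 1 tumour or 1 RNA is not given, so the wild-type n may be 2 rather than 3, and wild-type SDs, p-values and counts of groups without overlap would then be too favourable. With arrays 1 and 2 averaged into 1 sample, limma called 0 members and their median difference was 0.40. Median signal over the genes tested was lowest on knockout array 3, at 5.24, where the remaining 5 arrays had 5.40 to 5.59, which bears on every statement that array 3 was low. In bulk samples such as these, fewer cells of a type and less RNA per cell cannot be told apart.

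No member passed the test. limma's adjusted p, computed over all 12563 genes, was under 0.05 for 0 of 31 members and for 0.0% of all genes in either direction. Before adjustment, 3 members lay under 0.05 with a higher knockout mean, where the background was 3.31% of all genes, and 0 with a lower one, where it was 4.51%. These were Cgas, Gbp3 and Ifih1. Adjusted p over the members was 0.629 or more. What follows is therefore a description of means and of single arrays. The knockout mean was higher for 25 members, lower for 5 and equal for Ifit3. The higher share, 80.6%, stands beside 48.1% of all genes. The median log2 fold change was 0.34 over the members and -0.01 over all genes tested, and individual members ranged from -0.98 to 1.54. Without knockout replicate 1 the members' median was 0.08, and without knockout replicate 3 it was 0.55.

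**Figure D1:**
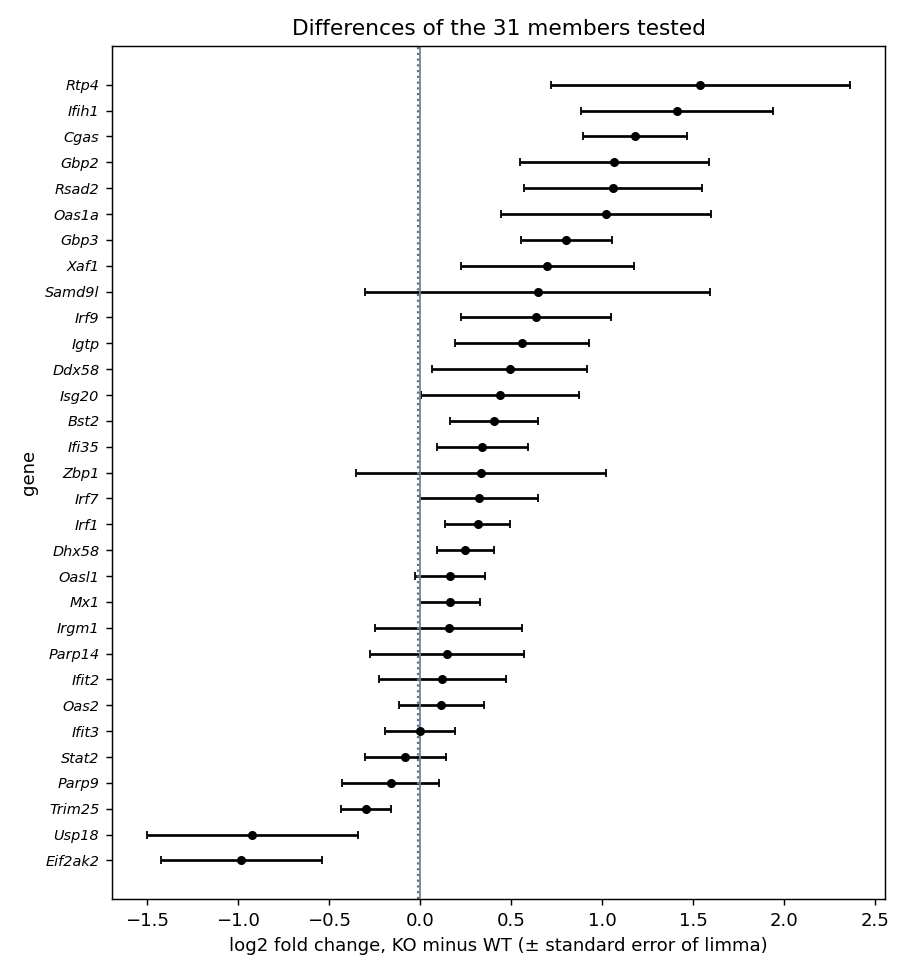
Each point is the log2 fold change of 1 of the 31 members tested, knockout mean minus wild-type mean of 3 arrays each, in log2 units on the horizontal axis. Bars are the standard error from limma, the solid line marks 0 and the dotted line the median of all genes, -0.01. Points run from -0.98 for Eif2ak2 to 1.54 for Rtp4, and the bar is widest for Samd9l, at 0.948.

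The sensors of RNA and DNA had higher knockout means in 5 of 5 members, and their median difference was 0.49. Cgas makes a cyclic dinucleotide when it meets cytosolic DNA. It read 5.12, 4.72 and 5.18 in wild type and 5.75, 6.41 and 6.41 in knockout. The groups did not overlap, and knockout array 1 was the lowest of its group, unlike for most members. The knockout mean was 1.18 above the wild-type mean, a 2.27-fold ratio, with a standard error of 0.286 (limma, adjusted p = 0.629). Its second probe set read 5.23, 4.51 and 4.97 against 5.03, 5.85 and 5.76, where the groups overlapped through knockout array 1.

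Ifih1 encodes MDA5, which binds long double-stranded RNA. Its signals were 4.76, 4.21 and 4.64 in wild type against 7.0, 6.11 and 4.74 in knockout. Arrays 1 and 2 of the knockout stood clear of the wild type, while array 3 lay inside its range. The log2 fold change was 1.41, with a standard error of 0.527 and an adjusted p of 0.634 by limma. Ddx58 encodes RIG-I, which binds RNA with a 5′ triphosphate. It was tightly grouped in wild type, at 4.34, 4.29 and 4.25, and read 5.71, 4.70 and 3.95 in knockout. Here 2 knockout arrays were above and the third below every wild-type array, for a log2 fold change of 0.49. Zbp1, a sensor of left-handed nucleic acid, read 6.03, 5.27 and 4.63 against 7.18, 5.44 and 4.32. Its highest and its lowest value were both in knockout. A second probe set of Zbp1 had the opposite sign, at -0.43 against 0.34. Dhx58, the regulatory relative of RIG-I called LGP2, had groups that did not overlap, at 2.31, 2.40 and 2.20 against 2.78, 2.46 and 2.42. Its signal is low throughout, and the difference was 0.25.

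The transcription factors of the pathway differed from each other. Irf9, the DNA-binding subunit of the type I complex, read 5.56, 5.21 and 5.50 in wild type and 6.84, 6.18 and 5.16 in knockout. Knockout arrays 1 and 2 were above the wild type and array 3 just below it. The difference was 0.64, with a standard error of 0.412 and a limma adjusted p of 0.709. Irf1, a factor induced most strongly by interferon gamma, read 8.13, 7.85 and 8.19 against 8.61, 8.33 and 8.18, a difference of 0.32. Irf7, the factor that amplifies interferon alpha genes, was low at 2.56 to 2.71 in wild type and reached 3.74 on knockout array 1, with 2.60 and 2.48 on the others. Stat2 was low on all 6 arrays, between 2.05 and 2.86.

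The GTPases had higher knockout means in 5 of 5 members tested, with a median of 0.56. The guanylate-binding proteins coat and break vacuoles that hold pathogens. Gbp3 read 5.74, 5.73 and 5.40 in wild type and 6.72, 6.14 and 6.42 in knockout. Every knockout array lay above every wild-type array, and the means differed by 0.80 with a standard error of 0.249 (limma, adjusted p = 0.629). Gbp2, whose promoter stretch above also holds ISRE letters, read 7.21, 7.25 and 6.42 against 8.99, 8.30 and 6.79. Knockout arrays 1 and 2 were high and array 3 inside the wild-type range. The difference was 1.07, with a standard error of 0.519, and a second probe set gave 0.86. Gbp2 and Gbp3 belong to a multigene family whose relatives such probes may also read, as do Oas1a and the IFIT genes. Igtp, an immunity-related GTPase also called Irgm3, followed the same order at 8.71, 8.56 and 7.96 against 9.52, 9.27 and 8.12. Its relative Irgm1 differed by 0.16, with 7.76 on knockout array 1 and overlap elsewhere. Mx1, which traps viral nucleoproteins, lay between 2.40 and 2.85, near the bottom of the scale. Mx2, under the filter, read 1.86, 1.80 and 2.02 against 1.78, 1.68 and 1.55.

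Among effectors of other kinds, 7 of 7 members tested had a higher knockout mean, with a median of 0.65. Rtp4, first described as a chaperone of membrane receptors, had the largest difference of all members. It read 5.23, 4.49 and 7.08 in wild type and 8.81, 6.40 and 6.21 in knockout. Only knockout array 1 exceeded wild-type array 3, and the difference of 1.54 carried a standard error of 0.823 (limma, adjusted p = 0.676). A second probe set of Rtp4, with lower signal, read 2.01, 2.31 and 2.43 against 3.2, 2.69 and 3.3, without overlap. Rsad2 encodes viperin, which makes a chain-terminating nucleotide. Its values were 7.84, 7.44 and 9.06 against 9.19, 9.96 and 8.37, again with wild-type array 3 well above arrays 1 and 2. The difference was 1.06 (standard error 0.488), and its other 2 probe sets gave 1.06 and 0.76.

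Samd9l, which restrains translation and growth, spread most widely within the knockout group. It read 5.39, 5.13 and 6.74 in wild type and 8.48, 6.46 and 4.26 in knockout. The highest and the lowest of the 6 arrays were both knockout, so the difference of 0.65 had a standard error of 0.948. Xaf1, a proapoptotic partner of XIAP, read 7.05, 6.73 and 6.46 against 8.52, 7.39 and 6.43. Its second probe set, near the bottom of the scale, read 2.47, 2.19 and 1.93 against 2.78, 2.58 and 2.57, without overlap. Isg20, an exonuclease that acts on RNA, gave 6.97, 6.78 and 6.65 in wild type and 7.80, 7.80 and 6.12 in knockout. In the probe sets used for Xaf1 and Isg20, knockout array 3 was the lowest of the 6. Bst2, or tetherin, which holds budding virions on the cell, ran the other way: knockout array 3 was high at 8.66, while the other 5 arrays lay between 7.61 and 7.89. Ifi35, a binding partner of NMI, differed by 0.34, and its other probe sets gave 0.34 and 0.007.

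The 2′-5′ oligoadenylate synthetases, which switch on RNase L, read low on all arrays, except Oas1a on knockout array 1. Oas1a read 2.33, 2.14 and 2.31 in wild type and 4.85, 2.64 and 2.36 in knockout. The groups did not overlap, but the 3 knockout arrays exceeded the wild-type mean by 2.59, 0.38 and 0.10. The mean difference of 1.02 had a standard error of 0.576 (limma, adjusted p = 0.685). Oas2 lay between 2.48 and 3.26, Oas3 between 1.57 and 2.49, Oasl1 between 1.77 and 2.5 and Oasl2 between 1.47 and 2.19. These 5 genes are on chromosome 5, as is Sh2b3. In RefSeq gene order 17 protein-coding genes separate Oas1a from Sh2b3, and 23 and 24 separate Oas3 and Oas2. Eif2ak2 encodes PKR, the kinase that halts translation on double-stranded RNA. It had the lowest difference of all members, from 6.05, 6.28 and 5.36 to 5.71, 4.95 and 4.09. Knockout arrays 2 and 3 were below the wild type and array 1 inside it. The difference of -0.98 had a standard error of 0.442 (limma, adjusted p = 0.648), and its other 2 probe sets gave -0.21 and -0.32.

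The IFIT genes showed little difference where they were tested. Ifit2 read 7.15, 7.32 and 8.35 against 7.86, 8.06 and 7.27, with every knockout array inside the wild-type range. Ifit3 lay between 2.53 and 3.03 on all arrays and had equal means. Ifit1, under the filter, read 1.41, 1.30 and 1.53 in wild type and 2.93, 2.23 and 1.21 in knockout.

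The ISG15 system, the ubiquitin ligase and the PARPs were the one role group with a median below 0, at -0.23, and 3 of 4 members had a lower knockout mean. Isg15 itself was not analysed and is not among the 4. Usp18 removes ISG15 from proteins and also blocks the type I receptor. It read 5.30, 5.05 and 3.77 in wild type and 4.77, 3.86 and 2.73 in knockout. Knockout array 3 was the lowest of all, and the difference was -0.92 with a standard error of 0.578. Trim25, the ubiquitin ligase linked to RIG-I activation, read 9.43, 9.36 and 9.17 against 9.03, 9.12 and 8.92. It was the only tested member whose knockout values were all under the wild-type values. The difference of -0.30 had a standard error of 0.137, and a second probe set with a difference of -0.35 also showed no overlap. Parp9 and Parp14, a pair of ADP-ribosyltransferase family proteins, differed by -0.16 and 0.15. Knockout array 3 was below the wild-type range for all 4 genes of the group.

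**Figure D2:**
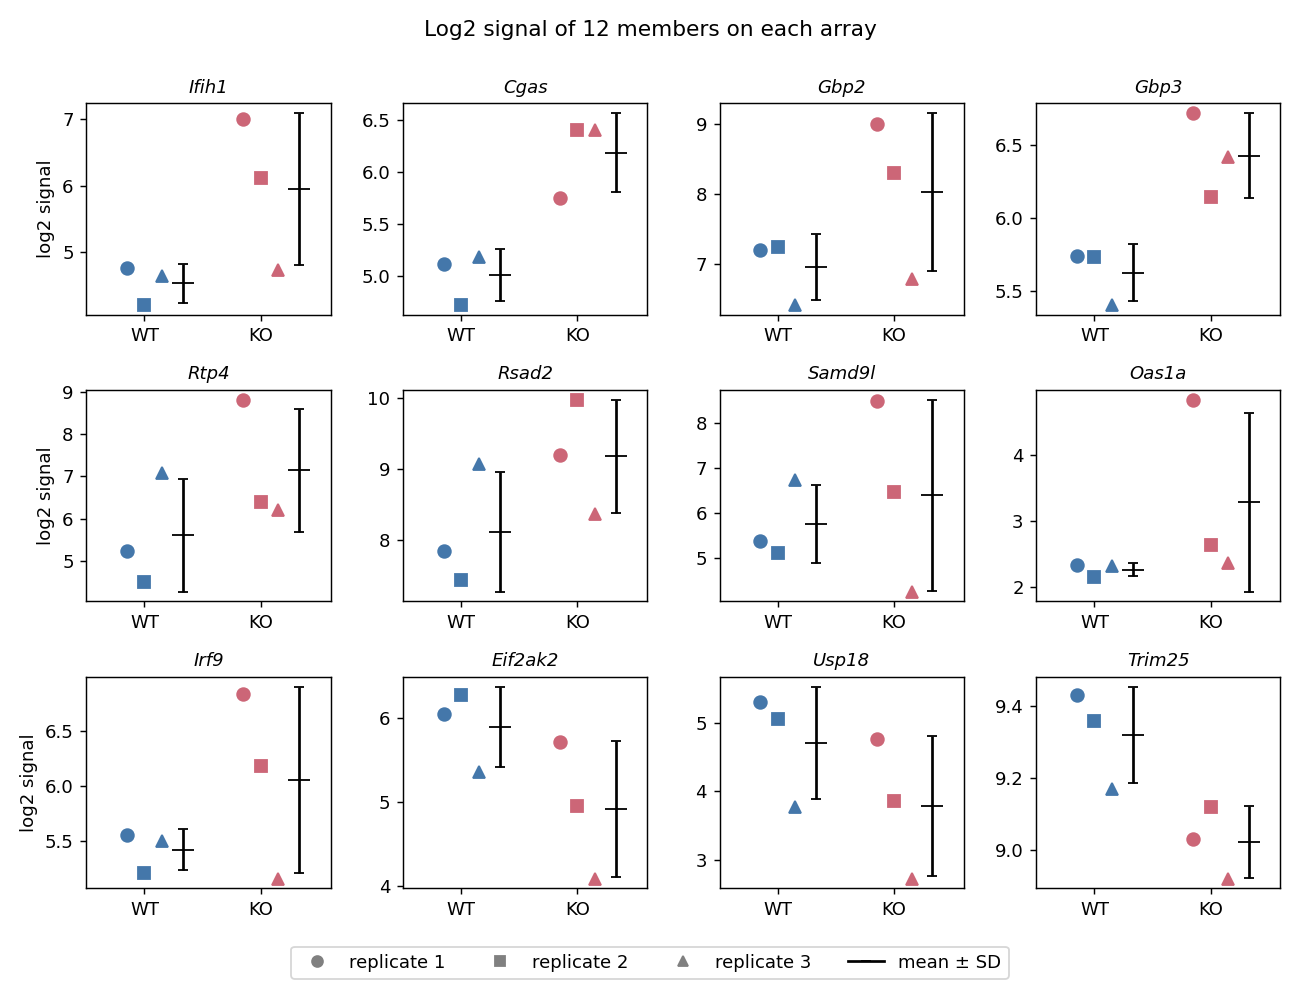
Log2 signal of 12 members on each of the 6 arrays (vertical axes, scaled per gene), wild type in blue and knockout in red, with replicate number as the point shape and mean ± SD (n = 3) beside each group. Cgas and Gbp3 separate the groups upward and Trim25 downward, whereas in Ifih1, Gbp2 and Irf9 the knockout spread runs from array 1 at the top to array 3 at the bottom.

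Groups that did not overlap were found for 4 members with higher knockout values, Oas1a, Gbp3, Dhx58 and Cgas, and for 1 with lower values, Trim25. Over all genes 5.49% did not overlap upward and 8.29% downward. The other tested members had overlapping groups, with a wide spread within the knockout. The SD of the 3 knockout arrays exceeded that of the wild type in 26 of 31 members (83.9%, against 60.7% of all genes). The median SD was 0.70 in knockout and 0.25 in wild type, where arrays 1 and 2 are the near-identical pair.

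The knockout arrays differed from each other over these genes. Knockout array 1 lay above all 3 wild-type arrays for 24 of 31 members (77.4%, background 28.8%). Knockout array 2 did so for 15 members (48.4%, background 24.3%), and both together for 14 (45.2%, background 11.6%). Knockout array 3 was above the wild-type range for 7 members (22.6%, background 28.6%) and below it for 12 (38.7%, background 33.1%). The 7 were Stat2, Oas1a, Oas2, Gbp3, Bst2, Dhx58 and Cgas. The count of 12 was 5 when each array was centred on its median, where 13.5% of all genes lay below. Array 3 thus stood near the share of all genes in both directions. Knockout array 1 was below the wild-type range for 1 member (background 31.9%) and array 2 for 4 (background 26.9%).

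Knockout array 1 was the highest of the 6 arrays for 19 members (61.3%, background 18.5%). It was over 1 log2 unit above knockout array 3 for 16 members (51.6%, against 5.89% of all genes), and the reverse held for 0 (against 3.02%). The order array 1, array 2, array 3 from high to low held for 19 members (61.3%, background 18.2%). The median of the member values minus their wild-type means was 0.80 on knockout array 1, 0.27 on array 2 and -0.14 on array 3. Summed over the 35 measured members on the linear scale, signal was 3815 to 4250 on the wild-type arrays and 7241, 5609 and 3663 on knockout arrays 1, 2 and 3.

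**Figure D3:**
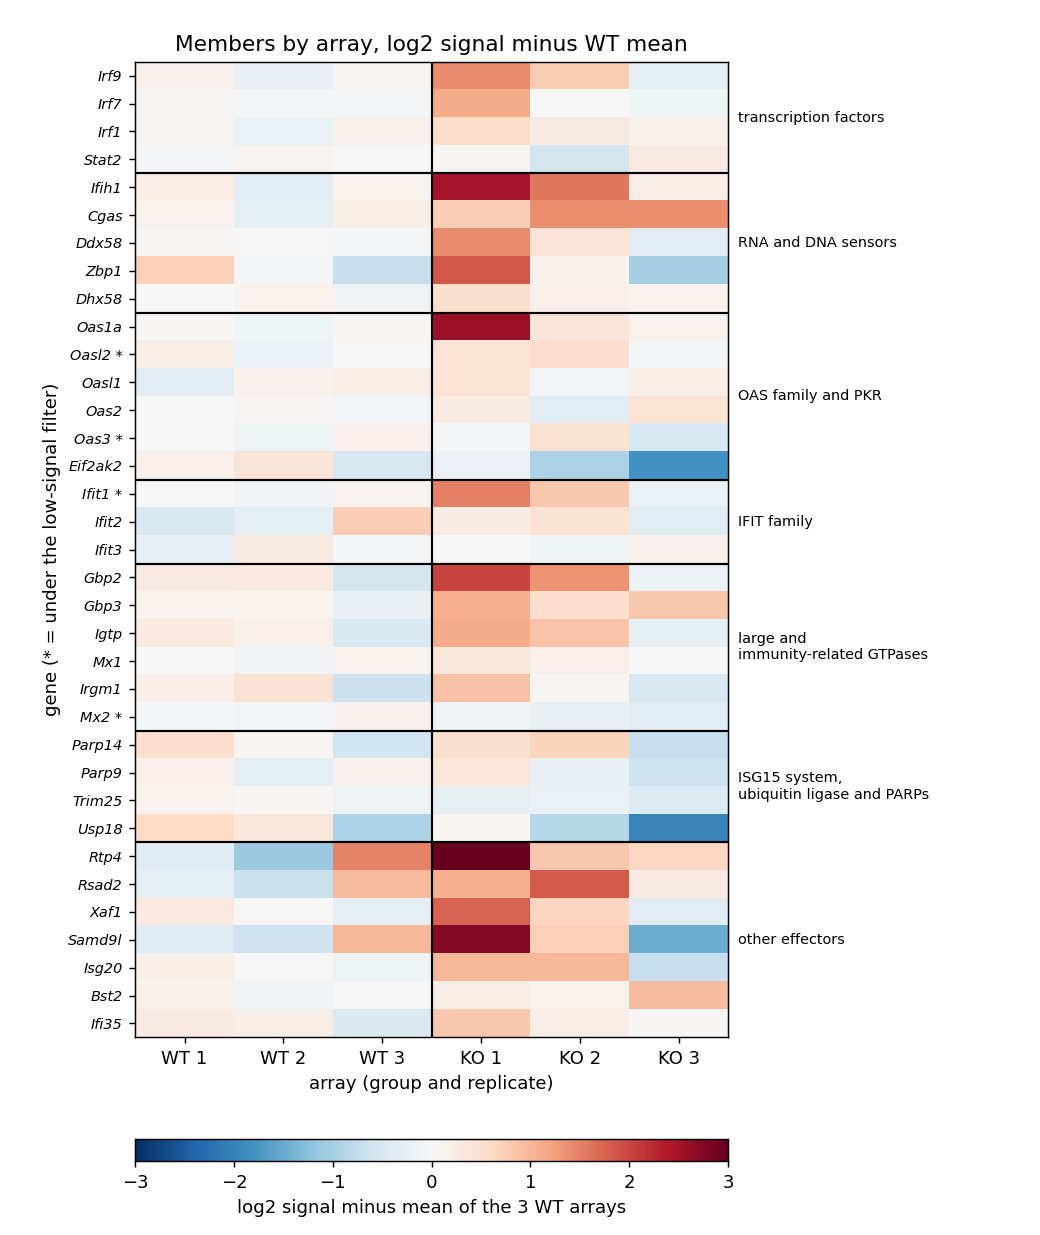
Each row is 1 of the 35 measured members, grouped by role, each column 1 array, and colour is the log2 signal minus the mean of the 3 wild-type arrays, with blue below and red above it; an asterisk marks a gene under the filter. Knockout array 1 is red over most role groups, up to 3.21 for Rtp4, while array 3 is mixed and is bluest for Usp18 and Eif2ak2.

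Wild-type array 3 departed from the other wild-type arrays in both directions. It was high for Rtp4, Rsad2, Samd9l and Ifit2. It was low for Gbp2, Igtp, Irgm1, Zbp1, Usp18, Eif2ak2, Ifi35 and Parp14, each by over 0.5 log2 units. For the other tested members it lay within 0.5 log2 units of the mean of arrays 1 and 2.

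Members with and without the ISRE letters described above both read high on knockout array 1. Of 12 tested members with the letters, 9 were above the wild-type range on knockout array 1, and so were 9 of the 11 with a promoter but no letters. The median on that array was 1.09 above the wild-type mean with the letters and 0.80 without. Of the 3 members printed without either element, Cgas and Samd9l were above the wild-type range there and Trim25 was below it. For Cgas that array was the lowest of the knockout group, and its second probe set lay inside the wild-type range there.

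**Figure D4:**
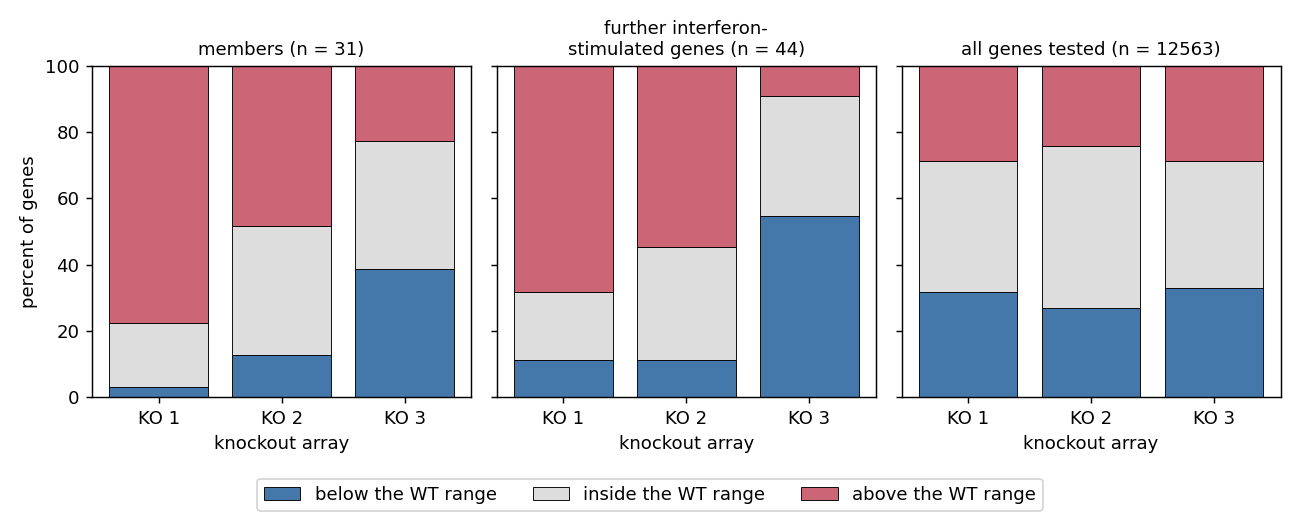
Bars give the percent of genes (vertical axis, 0 to 100) that lay below, inside or above the range of the 3 wild-type arrays, for each knockout array, over the 31 members, 44 further interferon-stimulated genes and all 12563 genes tested. The share above falls from 77.4% on knockout array 1 to 22.6% on array 3 for the members, while all genes stay between 24.3% and 28.8%.

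A second list of interferon-stimulated genes, with 44 of 54 names tested and none of them among the members, was read in the same way. Knockout means were higher for 31 (70.5%, background 48.1%) and lower for 13, with a median of 0.11. limma called 0 after adjustment. At an unadjusted p under 0.05 there were 4 higher and 1 lower, where the background was 3.31% and 4.51% of all genes. Knockout array 1 was above the wild-type range for 30 genes (68.2%, background 28.8%), array 2 for 24 (54.5%, background 24.3%) and array 3 for 4 (9.09%, background 28.6%). Array 3 was below the range for 24 (54.5%, background 33.1%). The smallest p values belonged to Ifitm1, Cmpk2, Lgals3bp and Gbp7. Ifitm1, which blocks fusion of enveloped viruses, read 2.44, 2.76 and 2.25 against 3.38, 3.63 and 2.87. Cmpk2, a nucleotide kinase encoded beside Rsad2, read 3.63, 4.0 and 4.36 against 5.81, 5.29 and 4.33. Gbp7 differed by 0.81 and Lgals3bp by -0.97. Nlrc5 and Ifi27l2a were chosen after their values were seen, since their arrays lay far apart. Nlrc5, an activator of MHC class I genes, read 3.18, 3.62 and 3.20 against 6.20, 4.96 and 2.64. Ifi27l2a read 4.20, 3.94 and 6.75 against 8.22, 6.96 and 5.24.

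Upstream of the members, the interferon genes measured, Ifnb1, Ifna2, Ifna4 and Ifng, were between 1.33 and 2.42 on all arrays and under the filter. Receptors and their kinases had lower knockout means in 7 of 7 genes tested, with a median of -0.28 and no call. Jak1, which serves both interferon receptors, read 9.05, 8.97 and 9.16 against 9.23, 8.49 and 7.99. Ifngr2, a chain of the gamma receptor, differed by -0.50, and Tyk2, a kinase of the type I receptor, by -0.30. On knockout array 3, 6 of the 7 lay below the wild-type range (background 33.1%). The adaptors and kinases that carry the sensors' signal were split, with 6 higher and 5 lower of 11 and a median of 0.01. Myd88, the adaptor of most Toll-like receptors, differed by -0.44, the transcription factor gene Irf5 by 0.27, and Tbk1, the kinase that acts after cGAS and RIG-I, by -0.16. The endosomal Toll-like receptors and their chaperone Unc93b1 lay between 1.48 and 2.98, near the bottom of the scale.

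Brakes on interferon signalling and nucleases that limit its triggers had 7 higher and 4 lower of 11, with none called. Samhd1, which degrades nucleotides, read 4.29, 4.35 and 3.87 in wild type and 5.28, 5.52 and 4.76 in knockout. All 3 knockout arrays were above the wild type, and the difference was 1.02 with a standard error of 0.298 (limma, adjusted p = 0.629). Socs3, an inhibitor of JAK kinases, read 9.22, 9.51 and 8.88 against 8.24, 8.97 and 7.73, a difference of -0.89. The phosphatase gene Ptpn2 differed by 0.24 and Rnaseh2b, a subunit of an enzyme that removes RNA from DNA, by 0.23.

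Markers of some other cell types were also high on knockout arrays 1 and 2, and their part in the members' values was not tested. Over all genes, 28.8%, 24.3% and 28.6% lay above the wild-type range on knockout arrays 1, 2 and 3. Of 12 tested monocyte and macrophage markers, 10 were above the wild-type range on knockout array 1, and their median there was 0.91 over the wild-type mean, with 0.08 and -0.13 on arrays 2 and 3. Their summed linear signal was 829 to 1734 in wild type and 2371, 1281 and 1123 in knockout. Csf1r and C1qb were well expressed on all arrays, at 7.14 to 9.20 and 7.26 to 9.06, whereas Vsig4 lay between 1.25 and 1.47. The knockout mean was higher for 9 of the 12 markers and lower for 3, among them Cd68 at -0.43 and C1qa at -0.27. The dendritic cell and MHC class II list was high on knockout arrays 1 and 2, with 6 of 6 tested genes above the wild-type range on each. Its sums were 679 to 717 in wild type and 1559, 1625 and 640.5 in knockout, while Itgax, Flt3 and Xcr1 were at or under 2.14 everywhere. Batf3, a factor of cross-presenting dendritic cells, read 2.04, 2.51 and 1.96 against 3.05, 3.15 and 2.57. Neither its groups nor those of Ciita, the MHC class II activator, and Zbtb46 overlapped. Over all genes tested, 5.49% did not overlap upward. Ciita was low, at 2.26 to 2.83, and Zbtb46, at 1.67 to 2.09, was under the filter. H2-Aa read 8.51, 8.51 and 8.75 against 9.84, 9.86 and 8.4. MHC class II genes respond to interferon gamma themselves.

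Plasma cell markers summed to 1506 to 2930 in wild type and 4228, 3624 and 3044 in knockout, with 4 of 5 tested genes above the wild-type range on array 1, 5 on array 2 and 4 on array 3. Mzb1, a chaperone of antibody assembly, read 5.04, 4.44 and 6.87 against 8.62, 7.64 and 6.93. Jchain, which joins antibody units, read 8.42, 8.72 and 10.68 against 11.34, 10.82 and 10.69. The groups of both, and of Xbp1 and Derl3, did not overlap, where 5.49% of all genes did not overlap upward. Derl3 was low in wild type, at 2.21 to 2.47. Sdc1, on the same list, had a lower knockout mean, at 9.19, 9.29 and 9.21 against 8.58, 9.61 and 9.12. Prdm1 was at or under 2.02. B cell markers summed to 126 to 182 in wild type and 310, 388 and 105.5 in knockout, with 5 of 9 above the wild-type range on array 1 and 6 on array 2. Cd79b, a chain of the B cell receptor, read 5.54, 4.86 and 5.85 against 6.78, 7.34 and 4.74. Ms4a1, which encodes CD20, read 5.9, 5.17 and 6.21 against 7.01, 7.06 and 5.01, and Blnk differed by 1.07. Cd79a and Pax5 were at or under 2.63 on all arrays. Natural killer and cytotoxic markers gave 2559 to 5702 against 8025, 5676 and 7890, nearly all of it Gzma, and Ncr1 was at or under 1.69. Siglech, which defines plasmacytoid dendritic cells, the main source of interferon alpha, lay between 2.03 and 2.90. That list's median was -0.07, -0.19 and 0.24 on the 3 knockout arrays, with 5 genes higher and 5 lower by mean. Its sums were 1147 to 1320 in wild type and 1758, 2159 and 2828 in knockout. Most of each sum was Ly6d, except on knockout array 2, where Ccr9 was the largest part. Ccr9 read 7.62, 7.52 and 6.85 against 6.49, 10.1 and 4.97. Irf8, on this list, read 5.22, 5.24 and 4.68 against 5.86, 6.38 and 5.26. Ly6d read 9.86, 9.58 and 10.08 against 10.58, 9.68 and 11.33. T cell markers had medians of -0.13, -0.09 and -0.46. Their knockout mean was lower for 9 of 10 tested and higher for 1, where 48.1% of all genes were higher. Neutrophil markers had -0.09, 0.07 and 0.18. As a sign of RNA quality, the 3′ minus 5′ signal of Actb was 1.26 to 1.46 in wild type and 1.27, 1.69 and 1.75 in knockout. For Gapdh it was 1.21, 1.18 and 0.74 against 0.84, 1.30 and 1.34. The part of RNA quality in the members' values was not tested.

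**Figure D5:**
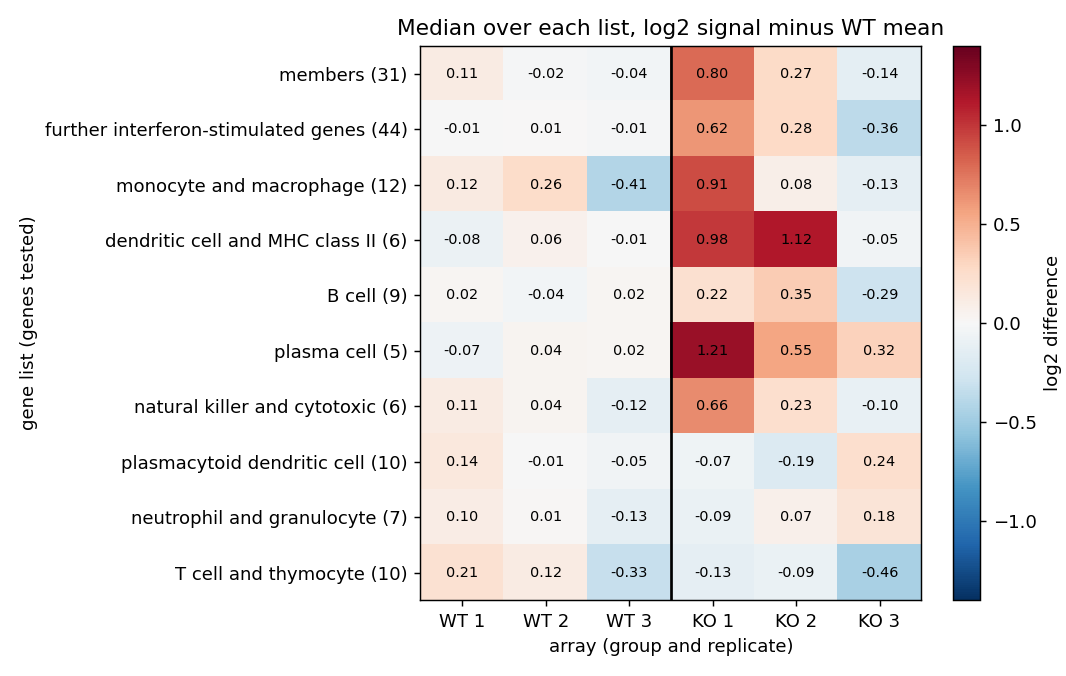
Each cell is the median over a gene list (rows, genes tested in brackets) of the log2 signal minus the wild-type mean on 1 array (columns), with blue below and red above 0. The members read 0.80, 0.27 and -0.14 on knockout arrays 1, 2 and 3, and the monocyte and macrophage list 0.91, 0.08 and -0.13.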

How the data were processed

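Gene expression was measured on 6 one-colour Affymetrix-type arrays of 45101 probe sets. The values deposited by the authors are log2 signals made with GCRMA, per the submitters' processing notes. The release and options of GCRMA were not given in the sources used here. The log2 scale was read from the values. Of the probe sets, 34958 carried 1 gene symbol in the platform annotation, 932 several and 9211 none, 64 of them controls. Only those with 1 symbol were used, giving 18194 genes, each by its probe set of highest mean. Testing was limited to 12563 genes whose mean exceeded 2.04, which 40 percent of all probe sets did not reach. Nothing was normalized again. Linear sums over lists add levels of different genes, so genes of high signal weigh most in them. A level also depends on the probe set that reads it.

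The groups were compared with limma 3.58.1 in R 4.3.3 (lmFit, eBayes with an intensity trend, two-sided). P-values were adjusted by Benjamini-Hochberg across these genes, with a threshold of 0.05. The fit was tested on simulated data. The number of arrays limits the precision. The members and lists were chosen with earlier results of these data known, including the differing knockout arrays, and get no test of their own. All members may be named. The values of all 6 arrays are given for members whose groups did not overlap and for those with the 5 largest and 3 lowest differences, and for some others. From each further list the genes past the threshold were named, or up to 4 of smallest p. Cell type markers were named outside this rule, with their values seen. They include genes high on some arrays, some with lower knockout means and defining ones near the bottom of the scale. The closing section gives 17 alternative settings.

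Promoters came from RefSeq, build GRCm38. Members without an entry there are left unprinted.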

Additional observations from a re-analysis of the deposited data

How the results depend on the processing

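Under each of 17 alternative settings limma called 0 members in either direction. The lowest adjusted p of any member was 0.225, for Cgas. The median over members stayed above 0, between 0.30 and 0.49 for settings that kept all arrays and between 0.08 and 0.55 when an array was left out. Median centring moved the median of all genes to 0.14, with the members at 0.49. Members with a higher knockout mean numbered 21 to 27. Of 31 members, 22 did not reverse direction in any setting. They include Ifit3, which had equal means in the main comparison and ranged from -0.11 to 0.15. Over all genes the 0 calls became 1 higher and 1 lower with median centring and 1 lower with array weights. When an array was left out they ranged from 0 to 20 higher and 0 to 31 lower. The largest counts, 20 and 31, came without wild-type replicate 3, when the near-identical arrays alone stand for the wild type. Sh2b3 then passed (limma, adjusted p = 0.0206), where all 17 settings gave adjusted p from 0.0206 to 0.765. Without knockout replicate 1 there were 3 higher, and without knockout replicate 3 there was 1. These causes were not tested.

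The settings for single knockout arrays were chosen after seeing the data. Array 3 lay above the wild-type range for 14 members with median centring, where 55.6% of all genes did, and for 8 to 11 when a wild-type array was left out (32.8% to 38.2% of all genes). It lay below for 7 with quantile normalization (27.3% of all genes) and 5 with median centring (13.5%), and for 13 to 16 when a wild-type array was left out (36.6% to 42.6%). Over these settings array 1 lay above for 25 or 26 members (33.8% to 40.9% of all genes) and array 2 for 14 to 19 (23.8% to 35.9%).

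Directions turned for 9 members, most with small differences but also Samd9l, at 0.65 in the main comparison. Ifit2 was -0.062 with wild-type replicates 1 and 2 averaged, Stat2 0.07 with median centring and Zbp1 -0.048 as the mean over probe sets. With an array left out, Ifit2 ranged from -0.11 to 0.50, Irf7 from -0.077 to 0.55, Irgm1 from -0.21 to 0.47, Oas2 from -0.043 to 0.35, Parp14 from -0.15 to 0.58, Parp9 from -0.42 to 0.068, Samd9l from -0.39 to 1.72, Stat2 from -0.25 to 0.16 and Zbp1 from -0.43 to 1.0. The same replicate number did not pair the samples: the deviations of same-numbered arrays correlated at -0.04, -0.05 and -0.05 across genes. With the replicate number as a block, 0 members were called and the median was 0.34. Of 19 further probe sets of members, 16 passed the filter and 15 of these had the sign of the one used, Zbp1 being the exception. For 8 members the wild-type mean was under 3, near the bottom of the scale, where differences can be compressed.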
